A study of Mus musculus with 4 samples.

Results

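The translocases and carriers that move proteins and metabolites into mitochondria were followed through a CLIP-chip experiment on mouse intestine, in which RNA crosslinked to protein was precipitated with an antibody and read on an array. Members were all probe sets that carried 1 gene symbol starting with Timm, Tomm or Slc25a and a digit. They numbered 77 of 21640 such probe sets and stood for 70 of 19937 genes, of which 24 were translocase genes (Timm and Tomm, 27 probe sets) and 46 were carrier genes (Slc25a, 50 probe sets). The RNA came from ultraviolet-crosslinked intestinal epithelium of adult C57BL/6 mice, with no age in weeks or sex given in the labels. One group was input RNA without antibody, one was precipitated with IgG as the control, one with an antibody to Musashi1 (Msi1, Millipore AB5977) and one with an antibody to an hnRNP that the labels do not specify. Each of the 4 groups had 1 array, on which RNA from 2 independent experiments was combined, so there were no replicates and no difference was tested. Precision is limited by this number of arrays, and each difference is described by its size.

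Most mitochondrial proteins are made in the cytosol and enter through the TOM complex of the outer membrane. Proteins with a cleavable presequence then pass the TIM23 complex of the inner membrane, while the many-spanning metabolite carriers are guided by small TIM chaperones to the TIM22 complex, so that translocases import the carriers themselves. Slc25 carriers exchange nucleotides, phosphate, amino acids, organic acids and cofactors across the inner membrane, and absorptive enterocytes, which spend much energy on transport, depend on this traffic. Msi1 is an RNA-binding protein known from progenitor cells of the gut and nervous system.

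All 17 epithelial markers sought, among them Vil1, Fabp2 and Muc2, were above background on the input array. Of markers of other cells, 3 of 4 immune genes, 2 of 6 muscle and stroma genes and 0 of the 2 neuron and glia genes found were above it, and in Msi1 against IgG 0 of these were higher. The striated muscle gene Ckm read 4.53 on input and 6.23 on IgG. Background was set on each array by a floor, the 95th percentile of 1204 probe sets for olfactory and vomeronasal receptors, which lay at log2 4.09 on the input array, 5.26 on the IgG array, 4.74 on the Msi1 array and 5.17 on the hnRNP array. A gene was compared where at least 1 of both arrays was above its floor, and 2-fold, or 1 log2 unit, was the size called higher or lower. A fold is written as "at least" where the dimmer value lay below its floor and was raised to it. In input RNA from an epithelium of several cell types, fewer cells of a type and less RNA per cell cannot be told apart.

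Most members were detected in the epithelium. On input 22 of 24 translocase genes and 36 of 46 carrier genes were above the floor, beside 59.1% of all genes. On the Msi1 array 16 translocase and 24 carrier genes were, beside 47.7%, on the hnRNP array 9 and 17, beside 32.9%, and on the IgG array 7 and 16, beside 28.1%. Timm8a2 and Tomm20l, relatives of Timm8a1 and Tomm20, were below the floor on all 4 arrays. So were 8 carrier genes on the probe set used, Slc25a2, Slc25a14, Slc25a21, Slc25a31, Slc25a33, Slc25a40, Slc25a53 and Slc25a54. Slc25a31 is the ADP/ATP carrier of the testis, with values of 2.74 on input, 4.25 on IgG, 3.63 on Msi1 and 4.53 on hnRNP.

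Msi1 was compared with IgG because the study ranked transcripts by their enrichment over that control. Of the 16 translocase genes compared, Msi1 exceeded the control by 2-fold or more for 9 and fell below it by as much for 0, and the highest were Timm21, Timm8b, Timm17a and Timm8a1. Over all genes compared, 18.6% were higher and 6.91% lower. The median difference was 1.36 for the translocases and 0.06 over all genes. Of the 9 higher translocases 7 were above the floor on Msi1 alone, so that they could enter only through the array where they were high. Without any floor 9 of all 24 translocases were higher and 1 lower, beside 9.99% and 8.25% of all genes, and the medians were 0.30 and −0.19. Where both arrays were above their floors, 2 of 7 translocases were higher (median −0.72), beside 7.88% of all such genes, and 0 were lower, beside 5.34%. With the dimmer value raised to its floor, 7 of the 16 were still at least 2-fold higher, beside 1118 of all 10360 genes compared.

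**Figure D1:**
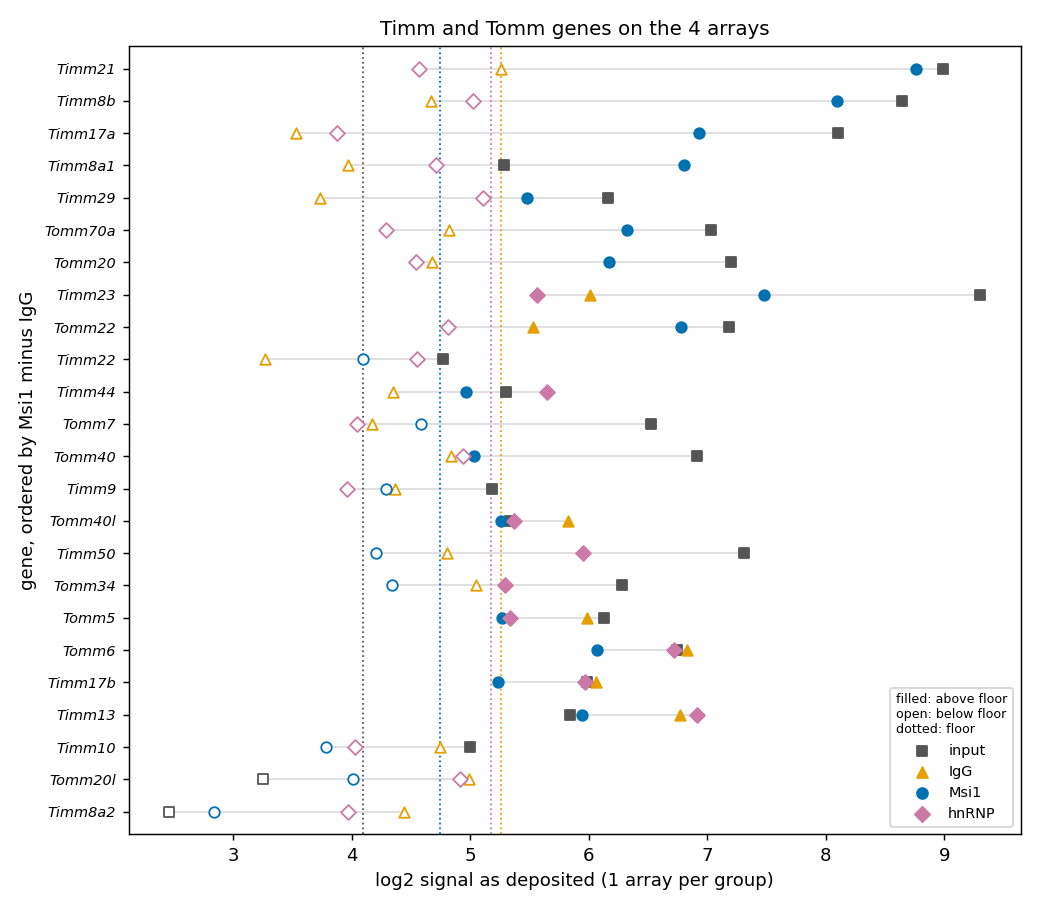
Log2 signals of the 24 Timm and Tomm genes (rows, ordered by Msi1 minus IgG) on the input, IgG, Msi1 and hnRNP arrays, with 1 array per group and no error bars. Filled symbols are above that array's floor (dotted line) and open ones below it; in the upper 9 rows Msi1 stands at least 2-fold above IgG, and in 7 of these rows IgG is open.

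In the TOM complex, the entry gate of the outer membrane, the genes past 2-fold above IgG were the receptors Tomm20, Tomm22 and Tomm70a. Tomm20, a receptor for presequences, read 7.20 on input, 4.68 on IgG, 6.17 on Msi1 and 4.54 on hnRNP, so Msi1 exceeded IgG by 1.49 (at least 1.87-fold). Tomm22, the central receptor, read 7.18, 5.53, 6.78 and 4.81 on the same arrays and exceeded IgG by 1.26, or 2.39-fold. Tomm70a, the receptor that takes up carrier proteins, read 7.03, 4.82, 6.32 and 4.29, a difference of 1.5 (at least 2.08-fold). On Msi1 these 3 receptor genes stood above both other precipitates, Tomm22 and Tomm70a within 2-fold of input and Tomm20 past it (−1.03). Tomm40, the channel itself, read 6.91 on input but 4.84, 5.03 and 4.94 on IgG, Msi1 and hnRNP, and Msi1 differed from IgG by 0.19. The small subunit gene Tomm5 read 6.13, 5.98, 5.27 and 5.33 on input, IgG, Msi1 and hnRNP. Tomm6 read 6.74, 6.83, 6.07 and 6.72. Both were above the floor on all 4 arrays, with Msi1 the lowest value of each, and differed from IgG by −0.72 and −0.76. Tomm7, which read 6.52 on input, was below the floor in all 3 precipitates and was not compared with IgG. Tomm40l, a relative of Tomm40, differed from IgG by −0.56 (5.26 against 5.82). In all, 3 of the 6 TOM genes compared were higher in Msi1 and 0 lower, beside 18.6% and 6.91% of all genes. Of these 3, Tomm20 was under 2-fold (1.87) with IgG raised to its floor.

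The TIM23 complex of the inner membrane held the translocase with the largest difference. Timm21, which links this complex to TOM and to the respiratory chain, read 8.99 on input, 5.26 on IgG, 8.76 on Msi1 and 4.57 on hnRNP. Msi1 exceeded IgG by 3.50 (at least 11.3-fold), rank 152 of 10360 genes compared, and lay within 0.23 of input. Timm17a, a channel subunit, read 8.10, 3.53, 6.93 and 3.87 and exceeded IgG by 3.40 (at least 3.17-fold). Its relative Timm17b read 5.98, 6.06, 5.23 and 5.97 and differed by −0.83. On these probe sets the 2 versions of this subunit lay on opposite sides of IgG, Timm17b by less than 2-fold. The other probe set of Timm17a exceeded IgG by 0.69, or by 0.09 with IgG at its floor. The channel gene Timm23 read 9.30, 6.01, 7.48 and 5.56 and was above the floor on every array, with Msi1 above IgG by 1.47 (2.76-fold). Timm44, which tethers the import motor, read 5.30, 4.35, 4.96 and 5.65, and Msi1 minus IgG was 0.60. Timm50, the receptor of the complex, read 7.31, 4.80, 4.20 and 5.95 and was below the floor on both IgG and Msi1. Timm44 and Timm50 were the TIM23 genes whose highest precipitate was hnRNP.

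Among the small TIM chaperones, which escort carriers through the intermembrane space, Timm8b and, on 1 of its probe sets, Timm8a1 were past 2-fold above IgG. Timm8b read 8.64 on input, 4.67 on IgG, 8.09 on Msi1 and 5.02 on hnRNP, with Msi1 above IgG by 3.43 (at least 7.09-fold) and within 0.55 of input. Timm8a1, whose human counterpart is mutated in a deafness and dystonia syndrome, read 5.28, 3.97, 6.80 and 4.71 and exceeded IgG by 2.83 (at least 2.90-fold). On its other probe set the difference was 0.03, or −0.48 with IgG at its floor. Timm13, the usual partner of Timm8 proteins, read 5.84, 6.77, 5.94 and 6.91, and its difference of −0.83 was under 2-fold. Timm9 and Timm10, which form the main chaperone ring, read 5.18 and 5.0 on input and were below the floor in all 3 precipitates, as was the TIM22 channel gene Timm22 (4.77 on input). Timm29, a TIM22 subunit, read 6.16, 3.73, 5.48 and 5.11, and its difference of 1.75 came to at least 1.16-fold once IgG was raised to the floor. The probe set that names both Dnhd1 and Timm10b was no member and was below the floor on all arrays.

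The carrier genes past 2-fold above IgG were Slc25a51, Slc25a3, Slc25a36, Slc25a15 and Slc25a44, and the difference between carriers and translocases was not tested. Of 26 compared, 5 were past 2-fold upward in Msi1 and 1 downward, against the same 18.6% and 6.91% of all genes. Their median was 0.16. Over all 46 carriers with no floor, 5 were higher and 6 lower, beside 9.99% and 8.25% of all genes (medians −0.33 and −0.19). Where both arrays were above their floors, 4 of 14 were higher, beside 7.88%. Only 1 of the 5 higher carriers, Slc25a3, was above the floor on Msi1 alone.

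Slc25a51, the mitochondrial NAD+ carrier, read 7.56 on input, 5.97 on IgG, 8.29 on Msi1 and 4.65 on hnRNP. Msi1 exceeded IgG by 2.32 (4.99-fold) and was the highest of its 4 values. Slc25a3, the phosphate carrier that supplies ATP synthase, read 10.27, 4.83, 6.85 and 5.02, so that it was 2.02 above IgG (at least 3.0-fold, or 1.59 with IgG at its floor) but −3.41 from input. Slc25a36, a pyrimidine nucleotide carrier, read 6.53, 5.63, 7.47 and 5.90, a difference of 1.83. Slc25a15, the ornithine carrier of the urea cycle, read 8.40, 5.66, 7.44 and 5.74, a difference of 1.78 (3.44-fold). Slc25a44, a carrier of branched-chain amino acids, read 7.14, 5.60, 6.82 and 6.05, a difference of 1.22. Except for Slc25a3, these carriers were within 2-fold of their input values on Msi1 on the probe sets used. The other probe set of Slc25a36 differed from input by −1.82. Next came Slc25a30, a relative of the uncoupling proteins, at 1.00 and just under 2-fold before rounding. Slc25a46, an outer membrane protein that shapes mitochondria, followed at 0.90, and the calcium-regulated ATP-Mg carrier Slc25a24 at 0.77. For Slc25a30 and Slc25a46 IgG was below its floor, and with IgG raised to it their differences were −0.18 and −0.11.

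At the other end Slc25a18, a glutamate carrier, was the carrier called lower. It read 4.05 on input, 5.77 on IgG, 4.38 on Msi1 and 4.44 on hnRNP, with Msi1 below IgG by at least 2.05-fold (−1.40), and its IgG value alone was above a floor. Slc25a41, a relative of the ATP-Mg carriers, differed by −0.97, Slc25a43 by −0.89 and the citrate carrier Slc25a1 by −0.79. Slc25a1 read 8.44 on input and 4.93 on Msi1, against 5.72 on IgG and 6.23 on hnRNP. A gene well detected in input could therefore be at its lowest on Msi1.

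**Figure D2:**
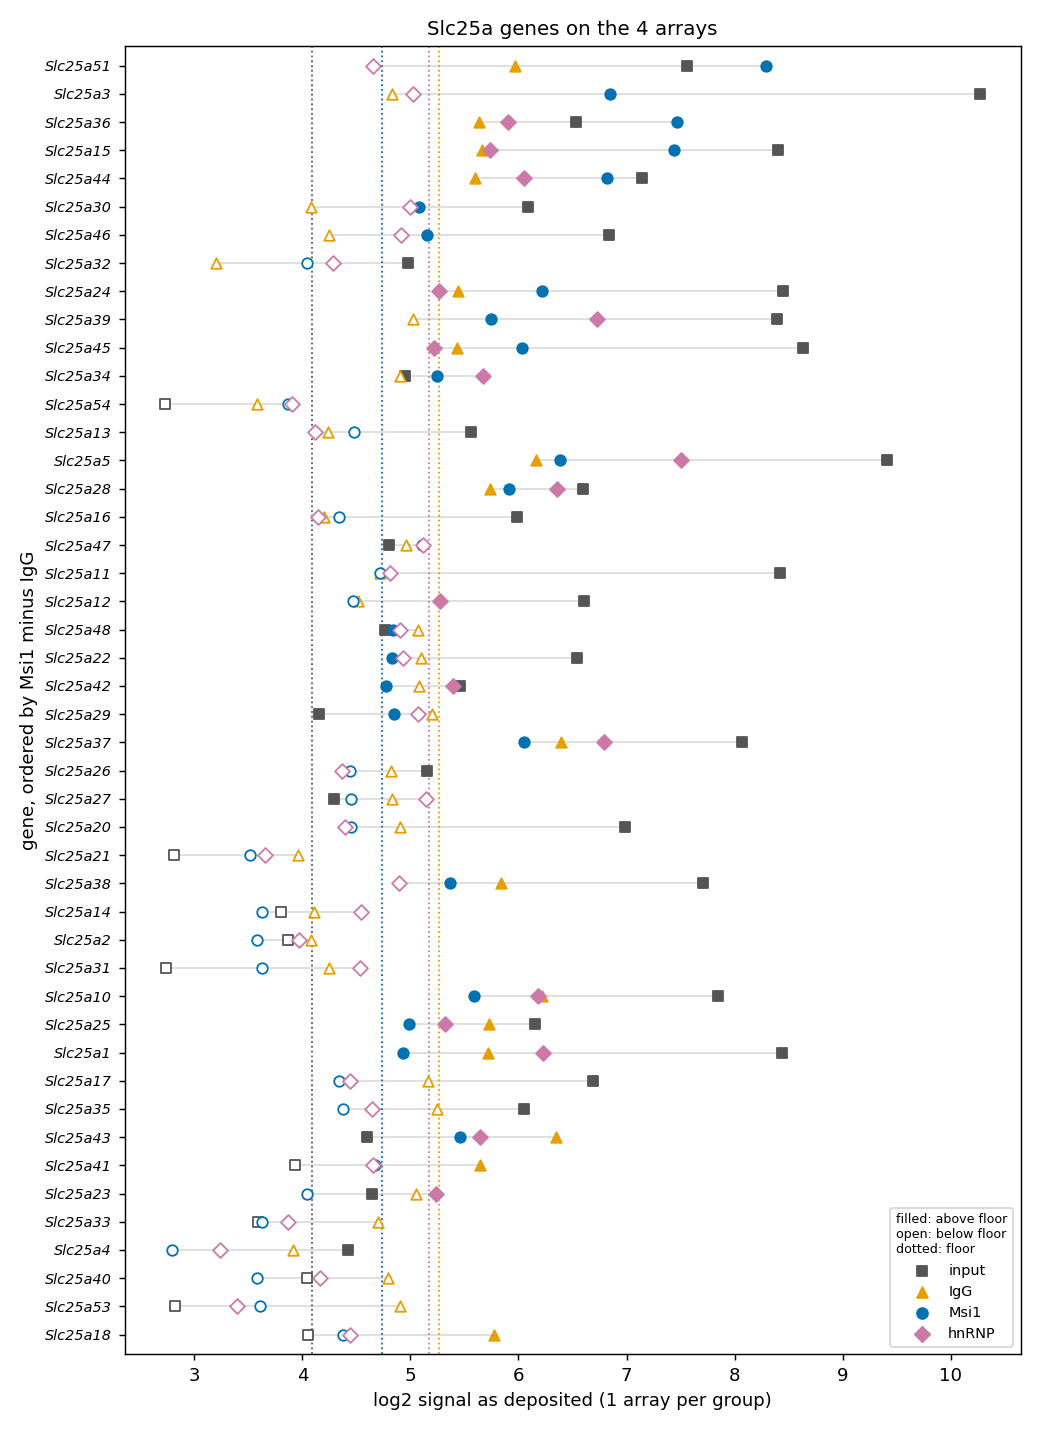
Log2 signals of the 46 Slc25a genes (rows, ordered by Msi1 minus IgG) on the 4 arrays, 1 array per group and no error bars, with filled symbols above and open symbols below each array's floor (dotted). In the upper 5 rows Msi1 exceeds IgG by 2-fold or more, and of these Slc25a3 shows the widest gap between input and Msi1.

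The difference of Msi1 over IgG went with the input level over the whole array, and this was set beside the members. Of all genes with input below the floor 1.33% exceeded IgG by 2-fold in Msi1, of those between the floor and 8 16.4%, of those from 8 to 10 47.6%, and of those at 10 and above 62.3%. Translocases numbered 5 of 12 higher between the floor and 8, and 4 of 4 from 8 to 10. Carriers numbered 3 of 16 and 1 of 7 in the same ranges, and 1 of 1 at 10 and above. Of the epithelial markers Msi1 exceeded IgG by 2-fold for 11 of 16 and was lower for 0 (median 1.44), beside 18.6% and 6.91% of all genes. All 17 were lower than input, beside 38.4% of all genes. Their median input was 10.62, however, and most genes at such levels were lower too. With input from 8 to 10, 87.2% of all genes were lower than input, and at 10 and above 171 of 180 were. The part of input level in the members' values was not tested.

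**Figure D3:**
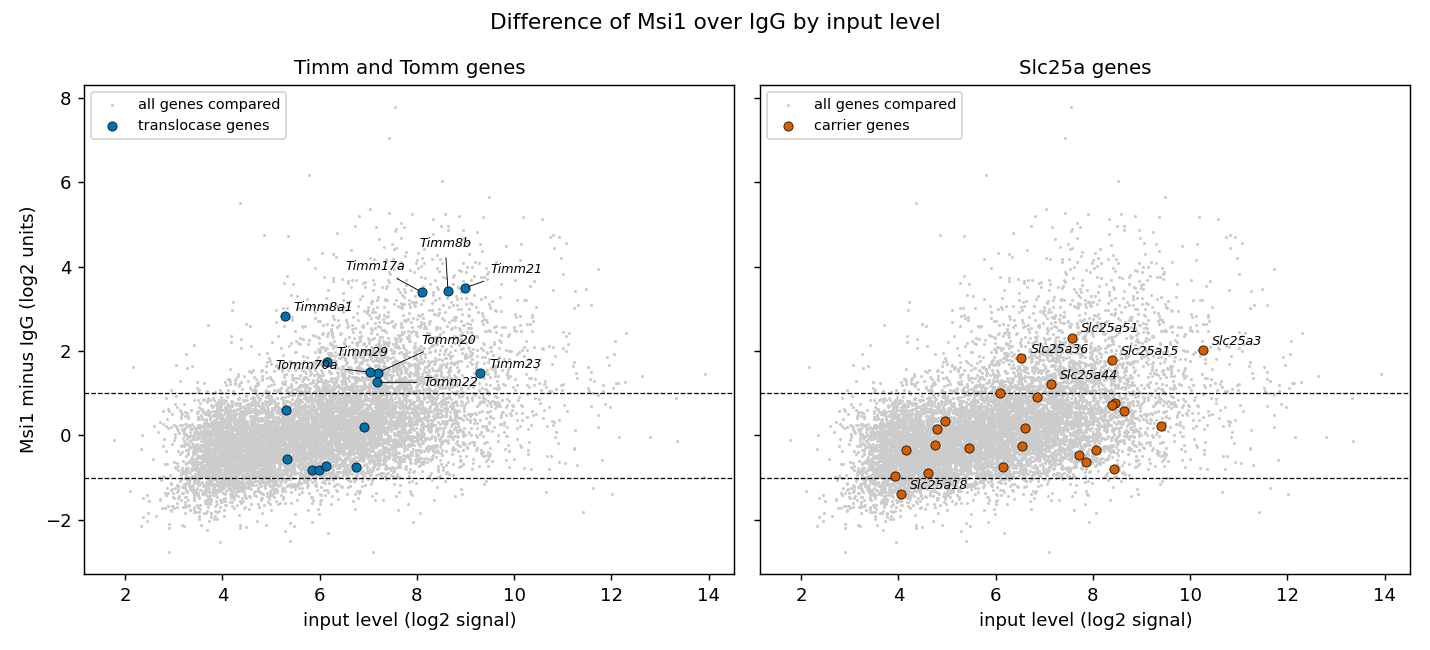
Msi1 minus IgG (log2 units, vertical) against the input level (log2 signal, horizontal) for all 10360 genes compared (grey), with the 16 translocase genes on the left and the 26 carrier genes on the right, each point 1 gene on 1 array per group. Dashed lines mark 2-fold; 9 translocases and 5 carriers lie above the upper line, and Slc25a18 lies below the lower one.

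Both classes were set against input to compare each transcript's signal on the Msi1 array with that on the input array. The same amount of RNA was labelled for each array, so these differences are in relative signal. They cannot show what part of a transcript was recovered in the precipitate. Of 22 translocases compared, 8 were at least 2-fold lower on Msi1 than on input, 1 was higher and 13 (59.1%) lay within 2-fold. Of 36 carriers, 21 were lower, 0 higher and 15 (41.7%) within 2-fold. Among all genes compared 38.4% were lower and 11.8% higher, and 49.8% lay within 2-fold. The medians were −0.73 for translocases, −1.40 for carriers and −0.57 for all genes. Where both arrays were above their floors, 4 of 16 translocases and 13 of 24 carriers were lower, beside 39.1% of all such genes. With input from 8 to 10, 2 of 4 translocases and 7 of 8 carriers were lower, beside 87.2% of all genes at that level. Between the floor and 8 the numbers lower were 6 of 18 and 13 of 27, beside 35.3%. The translocase above input was Timm8a1 (1.52, or 2.86-fold), on 1 of its probe sets. Timm13 (0.10), Tomm40l (−0.08) and Timm21 (−0.23) came next. The furthest below were Timm50 (−3.11, at least 5.94-fold), Tomm7 (−1.94), Tomm34, a cytosolic cochaperone gene (−1.94), and Tomm40 (−1.88).

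The carriers furthest below input were Slc25a11, Slc25a1, Slc25a3 and Slc25a5. Slc25a11, the oxoglutarate carrier of the malate-aspartate shuttle, read 8.42 on input and 4.72 on IgG, 4.72 on Msi1 and 4.81 on hnRNP, all 3 below their floors, and was at least 12.9-fold lower on Msi1 than on input. Slc25a1 was 11.4-fold and Slc25a3 10.7-fold lower. Slc25a20, the carnitine-acylcarnitine carrier of fat oxidation, read 6.99 on input and 4.45 on Msi1 (−2.54), and the dicarboxylate carrier Slc25a10 7.85 and 5.59 (−2.26). Slc25a38, the glycine carrier of heme synthesis, read 7.71 and 5.37 (−2.33). Slc25a17, which sits in peroxisomes rather than mitochondria, read 6.69 and 4.34 (−2.35). On the probe sets used, the highest over input were Slc25a36 (0.94), Slc25a43 (0.87), Slc25a51 (0.73) and the basic amino acid carrier Slc25a29 (0.70). All were under 2-fold on the deposited scale.

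These comparisons with input depended on scaling of the arrays, whose signals were spread more widely on input than on the precipitates. Loess centring, which removes the trend of the difference with level, moved the median of all genes from −0.57 to −0.02. It left 6 translocases lower and 5 higher, and 12 carriers lower and 4 higher. With quantile normalization the numbers lower were 4 and 13. The share of all genes called was not counted under either scaling, so these counts have no background beside them. The sign of Msi1 minus input changed for 9 of 22 translocases with quantile normalization and 12 of 22 with loess centring, each time from negative to positive, and for 4 of 36 carriers with either. With loess centring Timm17a, Tomm20 and Timm23 went from −1.17, −1.03 and −1.82 to 0.64, 0.53 and 0.20. Timm21 read 1.03 with quantile normalization and 1.89 with loess centring, Timm8b 0.72 and 1.46, Tomm22 0.70 and 1.27, and Tomm70a 0.37 and 0.84, in place of values between −0.71 and −0.23. Among carriers Slc25a15 read 0.36 and 0.95 and Slc25a44 0.76 and 1.35, in place of −0.95 and −0.32. Slc25a36 (1.69 and 2.61) and Slc25a51 (1.78 and 2.64) passed 2-fold above input under both scalings, and Slc25a43 did with loess centring (1.04). For Slc25a36 these values are of the probe set used, and the other lay at −1.82 on the deposited scale. Members far below input remained lower by smaller amounts. With loess centring Timm50 went from −3.11 to −2.17, Slc25a1 from −3.51 to −1.96, Slc25a11 from −3.71 to −2.20, Slc25a3 from −3.41 to −1.36 and Slc25a5 from −3.03 to −1.12.

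In the hnRNP precipitate Slc25a39 and, on 1 of its probe sets, Slc25a5 were past 2-fold above IgG with the dimmer value at its floor. Msi1 and hnRNP were each compared with the same IgG array, so the 2 sets of values share a control. Against IgG, 2 of 10 translocases compared were at least 2-fold higher in hnRNP and 0 lower. Of 21 carriers, 2 were higher and 2 lower, where 6.27% of all genes were higher and 4.51% lower. With the dimmer value raised to its floor, 0 carriers were lower, beside 93 of all 7912 genes. Medians were −0.11, 0.19 and 0.07. Timm44 differed by 1.30 (5.65 against 4.35) and Timm50 by 1.15 (5.95 against 4.80), and with IgG at its floor they came to at least 1.31-fold and 1.61-fold. In Msi1 the same genes differed from IgG by 0.60 and −0.60. Tomm34 (0.24) and Timm13 (0.15) followed, and Tomm22 (−0.72), Tomm5 (−0.66), Timm23 (−0.45) and Tomm40l (−0.44) were the lowest.

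Slc25a39, a carrier needed for mitochondrial glutathione, was the carrier highest in hnRNP over IgG. It read 8.39 on input, 5.02 on IgG, 5.75 on Msi1 and 6.73 on hnRNP, a difference of 1.71 (at least 2.76-fold), rank 42 of 7912. Slc25a5, the ADP/ATP carrier of most tissues, read 7.50 on hnRNP and 6.16 on IgG (1.33) on the probe set used. Slc25a34 differed by 0.77 and the aspartate-glutamate carrier Slc25a12 by 0.76. The lowest were Slc25a51 and Slc25a18 (both −1.33), Slc25a41 (−0.99) and Slc25a38 (−0.95). Slc25a51 was thus above IgG in Msi1 and below it in hnRNP, where it lay under the floor.

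Msi1 was then set directly against hnRNP. On the values as deposited, Msi1 was at least 2-fold higher for 8 of 18 translocases and lower for 1, and higher for 4 of 26 carriers and lower for 3. Among all genes 17.5% were higher and 7.79% lower, and the medians were 0.23, −0.14 and −0.02. Of the 8 higher translocases 7 were above the floor on Msi1 and not on hnRNP, so they could enter only through the array where they were high. Where both arrays were above their floors, 1 of 7 translocases (median −0.64) and 2 of 15 carriers were higher, beside 6.92% of all such genes. Timm21 differed by 4.20 (at least 12.1-fold, rank 68 of 10658), Timm8b by 3.07 (at least 7.59-fold), Timm17a by 3.06 (at least 3.39-fold) and Timm8a1 by 2.09 (at least 3.10-fold). All 4 were below the floor on hnRNP, so these differences and the rank rest on values within background. The other probe set of Timm17a differed by −0.36, and that of Timm8a1 by 1.02, or −0.38 with hnRNP at its floor. Timm50 was lower (−1.75, at least 2.32-fold), and Timm13 (−0.98), Tomm34 (−0.95) and Timm17b (−0.73) were within 2-fold. Slc25a51 led the carriers with 3.65 (at least 8.73-fold), ahead of Slc25a3 (1.83), Slc25a15 (1.70) and Slc25a36 (1.57). Slc25a1 (−1.30), the ATP-Mg carrier Slc25a23 (−1.20) and Slc25a5 (−1.11) were lower in Msi1. Slc25a23 was below the floor on Msi1 and came to at least 1.42-fold, under the size called. The other 2 probe sets of Slc25a5 turned the direction, with Msi1 above hnRNP by 4.0 and 1.25 (2.92 and 1.05 with hnRNP at its floor). Slc25a39 lay just under 2-fold lower (−0.98). With quantile normalization 4 translocases and 5 carriers were lower than hnRNP, and the share of all genes was not counted under that scaling.

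Of the 6 members with several probe sets, 5 gave values that differed by over 1 log2 unit between probe sets in Msi1 minus IgG. With values below the floor raised to it, Tomm20 gave 0.91 and 1.38 and Slc25a36 gave 1.83 and 1.85, closer together. Timm17a still gave 1.66 and 0.09, and Timm8a1 1.54 and −0.48. The gene's value was taken from whichever probe set had the greatest 4-array average. Slc25a5 had 3, all annotated with the same transcripts. The one used read 9.41 on input, 6.16 on IgG, 6.38 on Msi1 and 7.50 on hnRNP. A second read 12.71, 2.28, 8.09 and 4.09 and the third 11.68, 5.08, 6.22 and 4.97. Msi1 minus IgG was therefore 0.22, 5.81 or 1.14. On IgG 2.28 and 5.08 were within background, and raised to the floor they left 2.83 and 0.95, while all 3 were lower than input (−3.03, −4.62 and −5.46). The gene annotation lists a pseudogene, Slc25a5-ps, and what near-identical copies add to each probe set was not tested.

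Among the translocases, Timm8a1 depended most on its probe set. The one used (5.28 on input, 3.97 on IgG, 6.80 on Msi1 and 4.71 on hnRNP) exceeded IgG by 2.83 and input by 1.52. The other (7.31, 4.76, 4.79 and 3.77) differed by 0.03 and −2.52, and the means of the 2 over the 4 arrays were 5.19 and 5.16. Timm17a gave 3.40 on the probe set used and 0.69 on the other (5.88, 4.66, 5.35 and 5.71). Tomm20 was higher than IgG on both, with 1.49 and, on the other (7.46, 3.0, 6.65 and 4.17), 3.65. Slc25a36 was higher on both too, with 1.83 and, on the other (8.93, 4.16, 7.12 and 3.75), 2.95. Against input it differed by 0.94 on the first and −1.82 on the second. Counting a gene only where every detected probe set was past 2-fold left 7 of 16 translocases and 5 of 26 carriers higher than IgG. That rule was applied to members alone, so no share of all genes stands beside it.

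**Figure D4:**
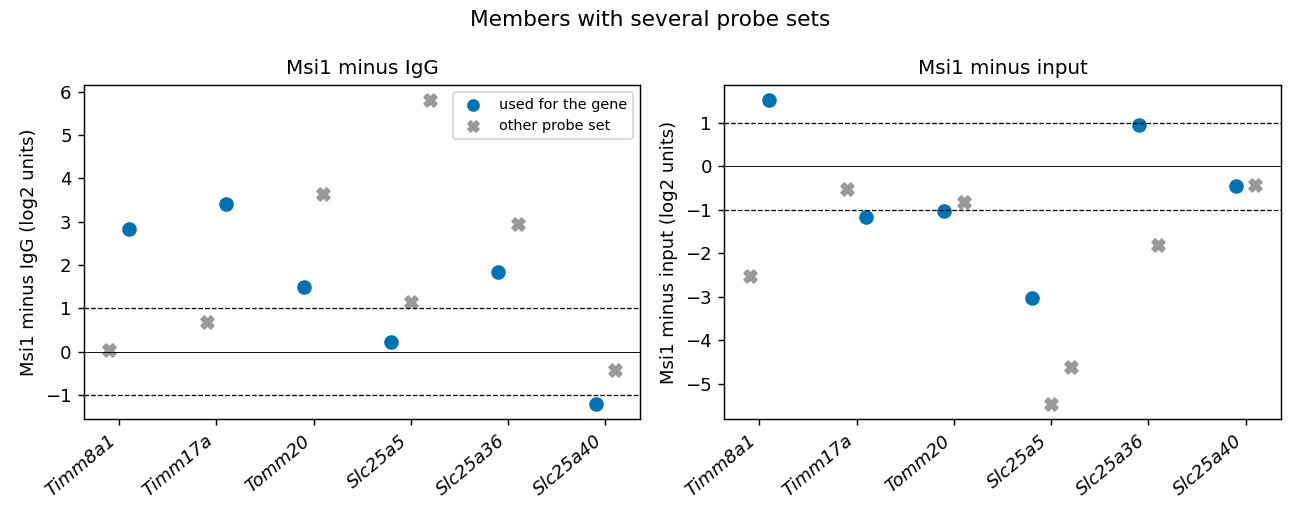
Msi1 minus IgG (left) and Msi1 minus input (right), in log2 units, for each probe set of the 6 members with more than 1, from 1 array per group; circles mark the probe set used for the gene, crosses the others, and dashed lines 2-fold. Slc25a5 spans 0.22 to 5.81 against IgG (0.22 to 2.83 with IgG at its floor), and Timm8a1 lies on both sides of 0 against input.

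Close relatives were set side by side. The iron carriers, mitoferrins Slc25a37 and Slc25a28, read 6.39 and 5.74 on IgG and 6.05 and 5.91 on Msi1, so both were within 2-fold of the control (−0.34 and 0.17), and both were above the floor on all 4 arrays. The aspartate-glutamate carriers Slc25a12 and Slc25a13 read 6.61 and 5.56 on input and were below the floor on both IgG and Msi1. Slc25a33, the relative of Slc25a36, was below every floor. Slc25a40, the relative of Slc25a39, was too on the probe set used, while its other probe set read 4.46 on input, above the floor, and 4.45, 4.03 and 3.22 on IgG, Msi1 and hnRNP. Slc25a4, the ADP/ATP carrier of heart and muscle, read 4.42 on input, just above the floor, and 3.91, 2.79 and 3.24 on IgG, Msi1 and hnRNP, all below it.

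Other genes of import were examined from a list of 23, of which 22 were found. In Msi1 against IgG 20 could be compared, and 5 of them were past 2-fold upward and 3 downward, with a median of 0.52, where 18.6% of all genes were higher and 6.91% lower. The matrix chaperonin Hspd1 read 9.21 on input, 5.16 on IgG, 8.21 on Msi1 and 4.43 on hnRNP (3.05), while its co-chaperonin Hspe1 read 8.92, 7.81, 6.42 and 6.91 (−1.39). Dnajc15, a cochaperone of the import motor, differed by 2.71 and the processing peptidase subunit Pmpca by 1.25. The related motor cochaperone Dnajc19 differed by 1.14 and the inner membrane peptidase Immp1l by 1.07. IgG was below its floor of 5.26 for Hspd1, Dnajc15, Dnajc19 (4.75) and Immp1l (3.87). On Msi1 Dnajc19 (5.89) lay less than 1 log2 unit above that floor and Immp1l (4.94) lay below it. Both calls thus rested on IgG values within background. Mtx1, an outer membrane assembly gene, differed by −1.75 and Agk, a lipid kinase that is also a TIM22 subunit, by −1.19. Against input 15 of 22 were lower and 0 higher, beside 38.4% and 11.8% of all genes.

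Of 10 other carriers and channels sought, 8 were found and 6 compared with IgG. Of these, 3 were higher in Msi1 and 0 lower, beside the same 18.6% and 6.91% of all genes. The outer membrane channel Vdac3 read 8.17 on input, 4.42 on IgG, 8.15 on Msi1 and 4.60 on hnRNP, a difference of 3.73. Vdac2 differed by 1.73, and Mtch2, an outer membrane insertase of the Slc25 fold, by 1.48. Vdac1 differed by 0.48 from IgG and by −3.98 from input. Ucp1, the uncoupling protein of brown fat, was below the floor on all 4 arrays.

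Promoters were examined for what the members share beyond their names, from the RefSeq promoter table (GRCm38.p6), which held 21 of the 24 translocase and 36 of the 46 carrier genes. In all 10 motifs were searched on both strands of the 250 bases before each start site, and the one described here was chosen after its counts were seen. CCGGAAG, the core bound by ETS factors such as GABP, was in 8 of 21 translocase promoters and 6 of 36 carrier promoters, and in 7.83% of the 27025 genes in the table. That share includes genes beyond the 19937 of the arrays and was not limited to genes detected here, as most members were. The 10 motifs were forms of the sites of NRF1, YY1, CREB, SP1 and ETS factors. The full palindromic NRF1 site, known from genes of the respiratory chain, was in 0 of 21 and 0 of 36, where 0.877% of all genes held it. Of the 9 translocases higher in Msi1 than in IgG, 8 had a promoter in the table and 5 held CCGGAAG, and of the other 15, 13 and 3. The arrays measured RNA and not promoters, and a match is a description of letters, not of binding. The promoters of the small TIM gene Timm8b (chr9:50603651-50603900, plus strand) and the receptor genes Tomm22 (chr15:79670618-79670867, plus strand) and Tomm70a (chr16:57121464-57121713, plus strand) are shown because these members were higher in Msi1 and hold the motif near the start site. Capitals mark CCGGAAG or its reverse complement, and each sequence ends at the base before the start site.
Timm8b: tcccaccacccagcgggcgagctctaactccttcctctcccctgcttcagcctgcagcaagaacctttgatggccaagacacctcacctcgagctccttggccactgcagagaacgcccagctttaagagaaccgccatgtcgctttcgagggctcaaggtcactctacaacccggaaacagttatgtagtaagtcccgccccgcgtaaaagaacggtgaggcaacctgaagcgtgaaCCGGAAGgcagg
Tomm22: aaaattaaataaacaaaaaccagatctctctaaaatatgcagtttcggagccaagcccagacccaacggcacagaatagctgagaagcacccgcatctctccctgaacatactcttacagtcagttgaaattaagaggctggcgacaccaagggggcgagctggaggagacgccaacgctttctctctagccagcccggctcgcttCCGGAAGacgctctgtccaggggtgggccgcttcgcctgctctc
Tomm70a: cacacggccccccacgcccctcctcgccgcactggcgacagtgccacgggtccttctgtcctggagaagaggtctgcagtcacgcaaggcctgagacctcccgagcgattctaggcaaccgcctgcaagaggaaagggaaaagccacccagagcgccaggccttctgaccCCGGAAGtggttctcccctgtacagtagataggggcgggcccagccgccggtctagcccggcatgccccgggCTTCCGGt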

How the data were processed

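RNA of 4 groups (input, IgG, Msi1 and hnRNP) was read on Affymetrix Mouse Gene 1.0 ST arrays, with 100 ng labelled per array, per the labels' protocols. Values are log2 signals as deposited by the authors, 1 per probe set. The submitters' processing notes name affy without a version, while how background was corrected and arrays were normalized is not stated there. Values ran from 1.07 to 14.3 and were read as base 2, which the labels do not name. The standard deviation over all probe sets was 2.01 on input and 1.17 to 1.38 on the precipitates. Probe sets with several symbols (1321) or none (11799) of 34760 were left out. All 77 member probe sets matched RefSeq by Entrez identifier. Of a gene's probe sets the one brightest on average was used. Differences were taken over the whole table in 4 comparisons, with no p-values. Tried as alternatives were loess centring (span 0.4), quantile normalization, median centring, other floors and detection rules, other choices of probe set, and updated symbols. Named were the highest and lowest members of each comparison, the subunits of each complex, paralogous pairs and members with several probe sets; further carriers of central metabolism were named after their values were seen. Members and lists were chosen with earlier results of these data known. The steps were tested on simulated data. Tools were Python 3.11.15, pandas 2.3.3, numpy 2.4.6, statsmodels 0.14.6 and matplotlib 3.10.9.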

Additional observations from a re-analysis of the deposited data

How the results depend on the processing

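With 1 array per group no spread was measured, and signal over background limits every comparison in which the dimmer value lay below its floor. No paired analysis was possible because each group had 1 array. Of the counts recomputed under the alternatives, 137 stayed within a factor of 1.5 of the value reported and 39 did not. The share of all genes called was not counted for the scalings, the 99th-percentile floor or the other choices of probe set. Median centring moved the median of all genes in Msi1 minus IgG from 0.06 to 0.20 and in Msi1 minus input from −0.57 to −0.82. Causes of the changes were not tested, except that fewer genes are compared with a higher floor or detection on both arrays. For Msi1 against IgG, the number of translocases higher stayed between 7 and 9 except with detection on both arrays (2 of 7). Beside 0 translocases lower there were 1 with loess centring, 1 with no floor and 4 with quantile normalization. Carriers lower, beside 1, numbered 4 with quantile normalization, 6 with no floor, and 0 with detection on both arrays or a 99th-percentile floor. For Msi1 against input, translocases lower, beside 8, numbered 4 with quantile normalization and 4 with detection on both arrays. Carriers lower, beside 21, numbered 13 in each of these and 12 with loess centring. With detection on both arrays 39.1% of all genes were lower. For Msi1 against hnRNP, detection on both arrays left 1 of 7 translocases and 2 of 15 carriers higher, in place of 8 and 4. Of all genes so detected 6.92% were higher. For hnRNP against IgG, translocases higher, beside 2, numbered 1 with the floor at the 99th percentile, 4 with no floor, and 0 with detection on both arrays or the dimmer value raised to the floor. Carriers higher, beside 2, numbered 4 with quantile normalization and 1 with detection on both arrays or the probe set brightest on input. Among members past 2-fold, Msi1 minus input changed sign with quantile normalization for Timm17a (0.15) and Tomm20 (0.12), with loess centring for Timm17a (0.64), Timm23 (0.20) and Tomm20 (0.53), and for Timm8a1 with the mean of its probe sets (−0.50) or the one brightest on input (−2.52). It also changed sign for members under 2-fold, among them Timm21, Timm8b, Tomm22, Tomm70a, Slc25a15 and Slc25a44, whose values stand in the report.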
